A study of Mus musculus with 6 samples.

Results

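The genes described here move ions, bicarbonate and water across epithelial and other cell membranes. They were the protein-coding genes of the deposited count table named Slc4a, Slc8a, Slc9a, Slc12a, Slc20a, Slc24a, Slc26a or Slc34a with a number, those whose names start with Clca, Aqp, Atp1a or Atp1b, and Cftr, Ano1, Best2, Car1, Car2 and Car4. This gave 75 genes of the 24797 in the table. Of these, 70 passed the filter on low counts and were tested, and the other 5 (Slc4a1, Slc4a10, Slc26a7, Aqp7 and Aqp12) held at most 19 counts in any library. Polyadenylated RNA was sequenced from colonic tumors of mice treated with AOM/DSS, a carcinogen (azoxymethane) combined with a colitis-inducing agent (dextran sulfate sodium). The 3 GRwt libraries came from tumors with the wildtype glucocorticoid receptor, the transcription factor that binds corticosterone, and the 3 GRdim libraries from tumors with a receptor deficient in dimerization. Both groups had the AOM/DSS treatment, and neither untreated colon nor tumor-free mucosa was analysed here. Whether each sample came from a different animal is not in the labels, so p-values reflect only how much these samples varied, which may be partly technical, and 2 of the GRdim library names share a number. Nor do the labels give the strain, the animals' age or how many tumors went into a sample.

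The colon absorbs sodium, chloride and water and secretes bicarbonate, potassium and mucus. At the surface, the sodium/proton exchanger Slc9a3 works beside the chloride/bicarbonate exchanger Slc26a3, and carbonic anhydrases supply the protons and bicarbonate that both exchange. On the basolateral side the sodium pump, made of Atp1a and Atp1b subunits, keeps the sodium gradient, and Slc12a2 brings in the chloride that leaves through Cftr and Ano1 during secretion. Glucocorticoids are known to raise sodium absorption in the intestine, in part through Slc9a3 and the sodium pump.

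Library totals ran from 21132981 to 36222351 counts, and the 75 genes took 0.627% (GRdim replicate 3) to 1.51% (GRwt replicate 2) of them. Several libraries stood apart. GRwt replicate 3 and GRdim replicate 1, with a T in their library names, held the ribosomal sequence Rn18s-rs5 at 2.51% and 2.05% of counts, against at most 0.0725% in the other 4. GRdim replicate 3 held Krt5 and Krt1, keratins of squamous epithelium, at 3122 and 2488 counts, against at most 131 and 9 counts in any other library. The 10 smooth muscle markers in that library summed to 6677 CPM, against 1280 to 2792 CPM in the other 5, CPM being counts scaled to a common library total with TMM size factors. Ddx3y, a Y-linked gene, reached 62.4 CPM of the unscaled total in GRdim replicate 2 and at most 0.71 CPM elsewhere. The 10 pan-epithelial markers, Epcam, Cdh1, Cdx2 and Vil1 among them, were all detected, and their summed level was 11065 to 16467 CPM in GRwt and 10807 to 12964 CPM in GRdim libraries.

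The transport genes with the lowest p-values were neighbours from the CLCA family, 4 of which stood lower in every GRdim than in every GRwt tumor sample. Fold changes are given on the log2 scale as GRdim minus GRwt, from the edgeR quasi-likelihood test fitted to all 18756 genes that passed the filter. No transport gene passed an adjusted p of 0.05 (0 of 70), and neither did any other gene (0% of all genes tested). At an unadjusted p under 0.05, 4 of the 70 were lower in GRdim, where 1.09% of all tested genes were, and 1 was higher, where 1.79% were. The 4 were Clca4b, Clca3a2, Clca3b and Clca3a1, and the 1 was Aqp5. With DESeq2, the tool in the submitters' processing notes, 0.17% of the genes given an adjusted p passed, namely 32, and 1 of them, Clca4b, was among the 70. The groups did not overlap for 4 lower genes (3.57% of all tested genes) and for 4 higher ones (2.98%), the latter being Slc4a3, Slc34a2, Clca2 and Slc26a8. In all, 36 of the 70 had a fold change above 0 and 34 below it, with a median of 0.0091, against a median of 0.0040 over all tested genes. In bulk tissue, fewer cells of a type and less transcript per cell cannot be told apart.

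**Figure D1:**
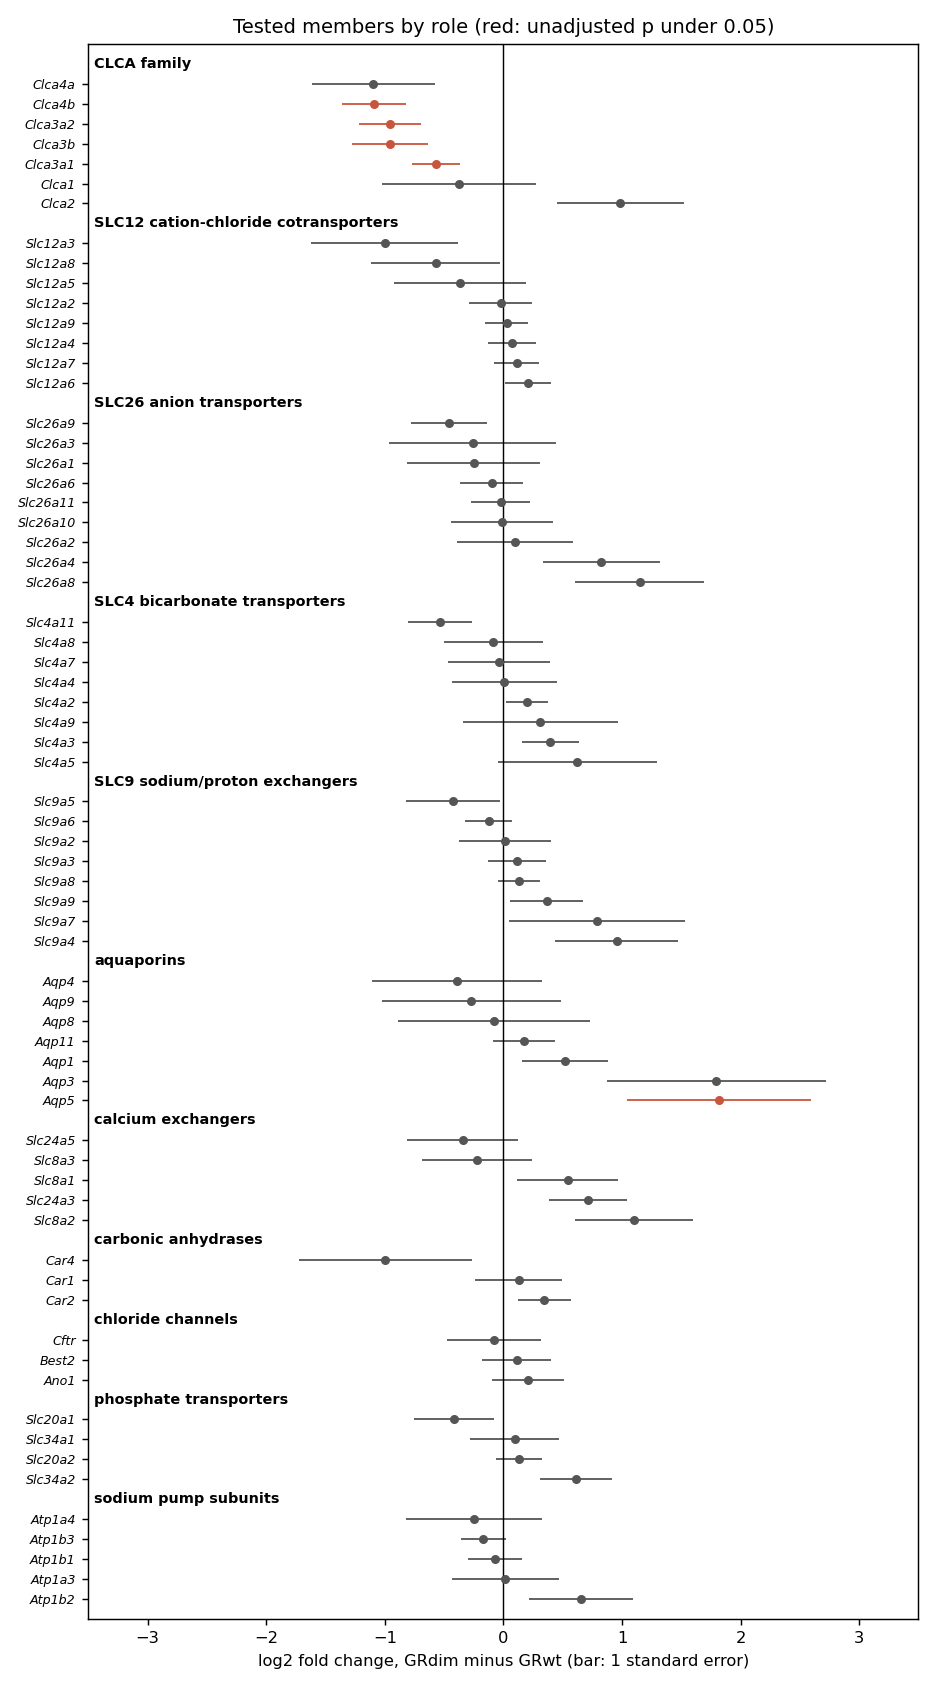
The horizontal axis gives the log2 fold change of 67 of the 70 tested transport genes (GRdim minus GRwt, 3 libraries each) with a bar of 1 standard error, grouped by role. Red points have an unadjusted p under 0.05: 4 CLCA genes on the left and Aqp5 on the right, and none passes an adjusted p of 0.05.

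The CLCA proteins are named as calcium-activated chloride channel regulators. They are secreted or surface proteins rather than channels themselves; human CLCA1, for example, is known to raise the surface level of the chloride channel ANO1. All 7 Clca genes lie side by side on the minus strand of chromosome 3, from 144435438 to 144805204 in GRCm39, a span of 370 kb. Clca4b (chromosome 3, 144616682 to 144638290), one of the mouse counterparts of human CLCA4, stood at 791, 1044 and 680.3 CPM in GRwt replicates 1, 2 and 3 and at 320.1, 517 and 342 CPM in GRdim replicates 1, 2 and 3. Every GRdim library lay below every GRwt library, and the means were 838 ± 186 CPM in GRwt and 393 ± 108 CPM in GRdim (± SD, n = 3 per group), 2.13 times lower. The log2 fold change was -1.09 with a standard error of 0.27 (edgeR unadjusted p = 0.00326, adjusted p = 0.9999). DESeq2 gave -1.11 with a standard error of 0.27 and an adjusted p of 0.0359.

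Its neighbours Clca3b, Clca3a2 and Clca3a1 showed the same separation. Clca3b (chromosome 3, 144528384 to 144555118) stood at 875, 1791 and 984 CPM in GRwt replicates 1, 2 and 3 and at 739.9, 662 and 481 CPM in GRdim replicates 1, 2 and 3. The highest GRdim library therefore lay below the lowest GRwt library, with GRwt replicate 2 well above the other GRwt libraries. Clca3a2 (chromosome 3, 144502320 to 144525255) stood at 43.6, 53.0 and 46.2 CPM in GRwt and at 25.4, 32.4 and 15.7 CPM in GRdim libraries. Clca3a1 (chromosome 3, 144435438 to 144466738) stood at 24.9, 24.0 and 23.8 CPM in GRwt and at 19.1, 16.7 and 13.2 CPM in GRdim libraries, with GRwt values that hardly differed from each other. Their log2 fold changes were -0.96 with a standard error of 0.32 for Clca3b, -0.96 with a standard error of 0.26 for Clca3a2 and -0.57 with a standard error of 0.20 for Clca3a1. The edgeR unadjusted p was 0.017, 0.00592 and 0.0201 in that order, and each adjusted p was 0.9999.

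The other 3 members of the cluster did not separate downwards. Clca4a, next to Clca4b and named after its values were seen, stood at 214, 563 and 226 CPM in GRwt and at 189, 218 and 62.4 CPM in GRdim libraries, with overlapping groups and a log2 fold change of -1.10 with a standard error of 0.52 (edgeR unadjusted p = 0.0643). Without GRwt replicate 2 the fold change of Clca4a was -0.50 (edgeR unadjusted p = 0.333), and without GRdim replicate 3 it was -0.72 (edgeR unadjusted p = 0.14). DESeq2 gave -1.12 for it (DESeq2 unadjusted p = 0.0212), and the edgeR unadjusted p was also under 0.05 without GRwt replicate 1 or GRwt replicate 3. Clca1, the goblet cell member that is secreted with mucus, was the most abundant of the family, at 1717, 5133 and 2769 CPM in GRwt and at 3827, 3040 and 560.2 CPM in GRdim libraries. The groups overlapped, and the log2 fold change of -0.37 was smaller than its standard error of 0.65. Clca2, the least abundant, went the other way without overlap, at 0.327, 1.02 and 1.05 CPM in GRwt and at 2.02, 1.53 and 1.18 CPM in GRdim libraries. Its log2 fold change was 0.99 with a standard error of 0.53 (edgeR unadjusted p = 0.0994) and rests on few reads, 209 counts over all 6 libraries.

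**Figure D2:**
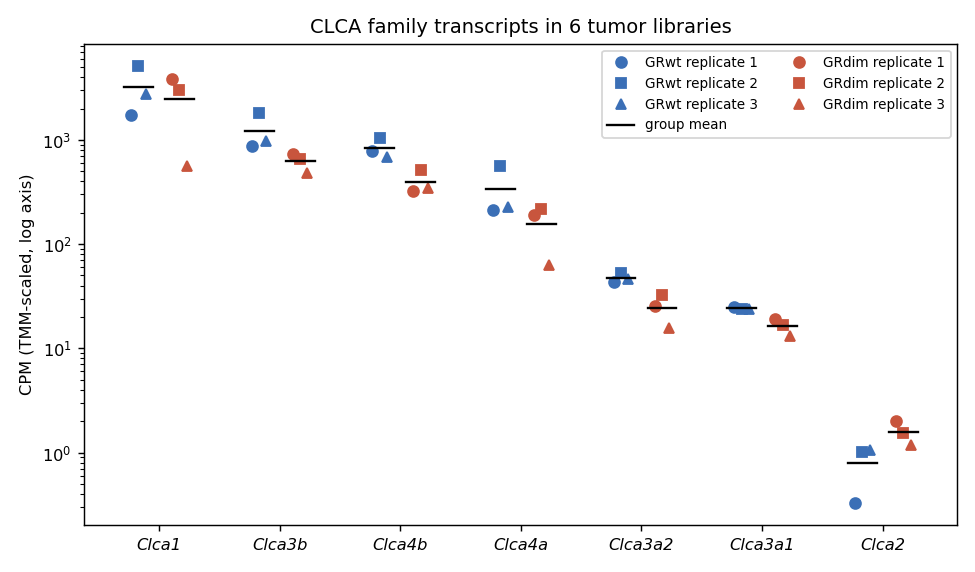
Points show the TMM-scaled CPM, on a log axis, of each of the 7 CLCA genes in 3 GRwt (blue) and 3 GRdim (red) libraries, with marker shapes for the replicate and black lines for group means. For Clca3b, Clca4b, Clca3a2 and Clca3a1 all red points lie below all blue points, for Clca2 they lie above, and for Clca1 and Clca4a the groups overlap.

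Other genes in and around the cluster were examined in the same way. Between the CLCA genes and within 1 Mb to either side, 20 other genes were tested, of which 11 had a fold change below 0 and 9 above it, and 0 had an unadjusted p under 0.05 with edgeR, a level reached by about as few of all genes (1.79% higher and 1.09% lower). Of the genes between the CLCA members, the pseudogene Clca4c-ps and the antisense lncRNA Gm16233, both under 1 CPM on average and picked out with their values known, stood at -0.81 and -0.88 on the log2 scale with standard errors of 0.50 and 0.60. The others tested there, the pseudogene Gm17743 and the lncRNA Gm35066, stood at -0.037 and 0.083 with standard errors of 1.18 and 0.37. The nearest protein-coding neighbours, Sh3glb1 on one side and Odf2l on the other, were named for their position. They had log2 fold changes of -0.15 and 0.024 with standard errors of 0.18 and 0.25. Among the genes of the flanks with a mean of at least 1 CPM, Ddah1 lay lowest, at -0.66 with a standard error of 0.38.

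**Figure D3:**
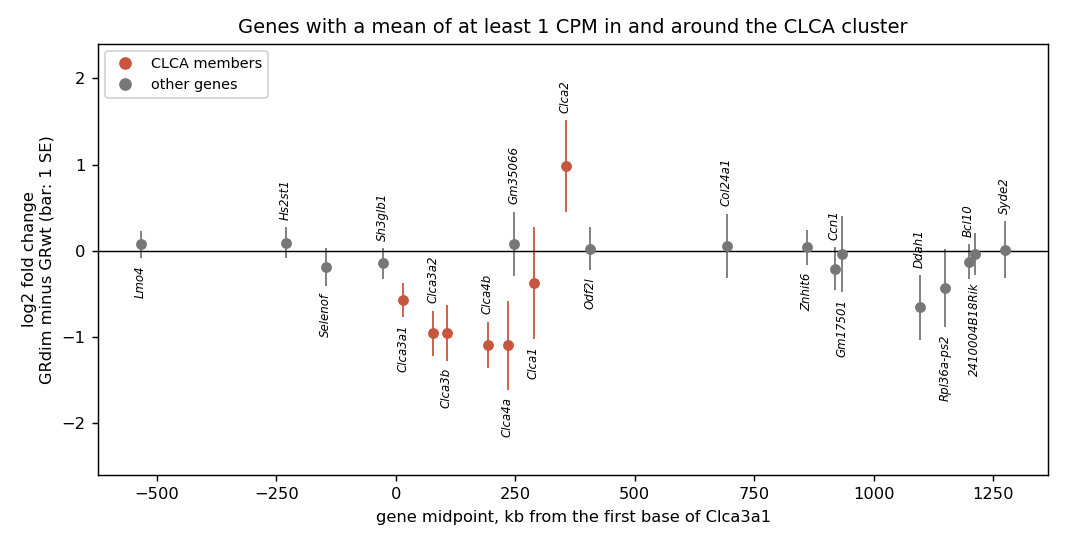
Each point is a gene with a mean of at least 1 CPM, placed by the distance of its midpoint in kb from the first base of Clca3a1, with its log2 fold change (GRdim minus GRwt) and a bar of 1 standard error. Clca3a1, Clca3a2, Clca3b, Clca4b and Clca4a, in red, lie between -0.57 and -1.10, and Clca1 and Clca2 at -0.37 and 0.99, while the grey genes lie between -0.21 and 0.095 apart from Ddah1 at -0.66 and Rpl36a-ps2 at -0.43.

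Levels of epithelial, colonocyte and goblet transcripts were set beside these values. Of the 11 absorptive colonocyte markers, none at 0 in any library, 10 had fold changes below 0 and 1 above it, with a median of -0.32. The 1 above it, Slc51a, was scarce, at no more than 0.536 CPM in any library. Among the 11 markers Mall was lower at an unadjusted p under 0.05 (-0.70 with a standard error of 0.30, edgeR unadjusted p = 0.0445), while Lypd8, which makes up most of their summed level, had -0.014 with a standard error of 0.30. Slc51a, Mall and Lypd8 were named after their values were seen, and the part of colonocytes in the CLCA values was not tested. All 10 pan-epithelial markers had fold changes below 0, 0 of them with an unadjusted p under 0.05, and a median of -0.20. Per 1000 CPM of the summed pan-epithelial markers, a ratio chosen after the values were seen, Clca4b stood at 61.0, 63.4 and 61.5 in GRwt and 29.6, 43.2 and 26.4 in GRdim libraries. It was nearly constant in GRwt and lower in each GRdim library. On the same scale Clca3a2 stood at 3.37, 3.22 and 4.17 in GRwt and 2.35, 2.71 and 1.21 in GRdim libraries, again without overlap. For Clca3b, however, this ratio was 67.5, 109 and 89.0 in GRwt and 68.5, 55.4 and 37.1 in GRdim libraries, and GRdim replicate 1 then lay just above GRwt replicate 1. Clca3a1 overlapped on it as well, at 1.92, 1.46 and 2.15 in GRwt and 1.77, 1.398 and 1.01 in GRdim libraries. Goblet cell markers summed to 19506, 26258 and 21004 CPM in the GRwt libraries, by replicate number, and to 33318, 13721 and 4487 CPM in the GRdim libraries, with none of the 9 at 0 and all 9 fold changes below 0. Clca1 was lowest in the library where they were lowest, GRdim replicate 3, and per 1000 CPM of goblet markers it stood at 88.0, 196 and 132 in GRwt and 115, 222 and 125 in GRdim libraries, with overlapping groups. Muc2, named after its values were seen, gave 24954 CPM of the goblet sum in GRdim replicate 1 and 1462 CPM in GRdim replicate 3. The ratio therefore depends much on this 1 gene.

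The lower level of Clca4b and Clca3a2 held when single libraries were left out. Without GRdim replicate 3, the library with squamous keratins, Clca4b and Clca3a2 had log2 fold changes of -1.01 and -0.72 (edgeR unadjusted p = 0.0162 and 0.0106). Clca3b and Clca3a1 had -0.80 and -0.44 there, with unadjusted p of 0.0624 and 0.0693 by edgeR. Without GRwt replicate 2, Clca3b had -0.57 (edgeR unadjusted p = 0.0669), and without GRwt replicate 1 the p of Clca3a1 by edgeR was 0.0559. In the 4 libraries whose names lack the T, fold changes were -1.09 for Clca4b, -1.01 for Clca3a2, -1.22 for Clca3b and -0.71 for Clca3a1. The pair of T libraries, 1 of each genotype, allows no test. In each of these 4 genes the GRdim library of the pair was the lower one. That follows from the lack of overlap already given and adds nothing to it.

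CLCA genes resemble each other in sequence, and reads that match more than 1 of them can be divided or dropped in counting. Of the 75-base windows in the GENCODE M21 transcripts of Clca4b, 12.6% also occur in another gene, 11.8% in Clca4a. Clca4a shares 24.9%, most of them with the pseudogene Clca4c-ps, and Clca3a1 and Clca3a2 share 13.2% and 13.3%, chiefly with each other. Clca3b shares 2.13%. The division of counts within these pairs is therefore uncertain, while most windows of each gene are its own. Of the counts of Clca4a and Clca4b together, the share of Clca4b was 78.7%, 65.0% and 75.1% in the GRwt libraries, by replicate number, against 62.9%, 70.3% and 84.6% in the GRdim libraries. These shares overlap between genotypes, and their exact 95% intervals, which cover counting error only, were from 62.1% to 63.7% at their widest, in GRdim replicate 1. Clca4a overlaps the antisense lncRNAs Gm16233 and Gm35066, with 165 and 400 counts over the 6 libraries.

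The 250 bases before the annotated start are shown for Clca4b and Clca3b, from RefSeq in build GRCm38.p6, since these were the most abundant of the 4 genes that were lower in every GRdim library. Capitals mark a match to the AP-1 motif TGANTCA on either strand, of which Clca4b has none and Clca3b has 1.
Clca4b (chr3:144932530-144932779, GRCm38.p6, minus strand): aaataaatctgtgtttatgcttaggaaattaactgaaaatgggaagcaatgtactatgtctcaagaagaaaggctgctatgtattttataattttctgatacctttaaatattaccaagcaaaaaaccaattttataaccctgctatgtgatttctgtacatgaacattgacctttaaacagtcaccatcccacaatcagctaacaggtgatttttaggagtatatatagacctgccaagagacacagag
Clca3b (chr3:144849303-144849552, GRCm38.p6, minus strand): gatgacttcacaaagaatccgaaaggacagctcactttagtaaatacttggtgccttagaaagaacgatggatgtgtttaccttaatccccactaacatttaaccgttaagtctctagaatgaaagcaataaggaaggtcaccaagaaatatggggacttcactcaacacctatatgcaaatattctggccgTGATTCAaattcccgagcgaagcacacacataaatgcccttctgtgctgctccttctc
The windows were identical at 47.4% of aligned positions, and the match of Clca3b starts 58 bases before its annotated start. AP-1 matches were found in 12.3% (8) of the 65 windows of the transport genes, which were listed for 52 genes, and in 6.75% of all windows. The 8 include those of Clca3b and Clca3a2, which were identical at 62.9% of aligned positions and need not count as separate. The palindromic glucocorticoid receptor element (AGAACA and, after 3 bases, its reverse complement) was in 0 of the 65 and in 0.00913% of all windows. The hexamer AGAACA alone, on either strand, was in 13.8% of the 65 and in 16.1% of all, and in neither of those shown. A match is a string of letters and not evidence of binding, and its absence says only that these letters are not in this window.

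Anion exchangers of the SLC26 family included genes of high and variable level. Slc26a3, the apical chloride/bicarbonate exchanger whose human counterpart is mutated in congenital chloride diarrhea, stood at 86.0, 337 and 111 CPM in GRwt replicates 1, 2 and 3 and at 246, 167 and 32.9 CPM in GRdim replicates 1, 2 and 3. The highest library of all was a GRwt and the lowest a GRdim sample, a 10.2-fold range, and the log2 fold change of -0.26 was smaller than its standard error of 0.70. Slc26a2, a sulfate transporter, stood at 159.7, 376 and 268 CPM in GRwt and at 521, 195 and 144 CPM in GRdim libraries, with a log2 fold change of 0.10 with a standard error of 0.49. Slc26a9, a chloride transporter, was lower in level, at 15.9, 7.27 and 12.2 CPM in GRwt and at 6.70, 10.1 and 9.04 CPM in GRdim libraries, with groups that overlapped. Among the other 6 tested members the means ran from 0.325 CPM for Slc26a8 to 8.98 CPM for Slc26a11. Slc26a8 was higher in every GRdim library, but at no more than 0.514 CPM.

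Bicarbonate transporters of the SLC4 family did not separate by genotype, apart from Slc4a3. Slc4a2, a chloride/bicarbonate exchanger of the basolateral membrane, stood at 77.6, 105 and 96.1 CPM in GRwt and at 108, 115 and 96.8 CPM in GRdim libraries, a log2 fold change of 0.20 with a standard error of 0.18. The sodium/bicarbonate cotransporters Slc4a7 and Slc4a4 varied more: Slc4a7 stood at 67.4, 119 and 150.5 CPM in GRwt and at 185, 81.8 and 61.8 CPM in GRdim libraries. Slc4a4 stood at 33.9, 63.9 and 59.8 CPM in GRwt and at 94.6, 29.3 and 34.8 CPM in GRdim libraries. For both, GRdim replicate 1 was the highest of the 6 libraries, and the fold changes were -0.036 and 0.0085 with standard errors of 0.43 and 0.45. Next came GRwt replicate 3, the other library with a T in its name, for Slc4a7, and GRwt replicate 2 for Slc4a4. Slc4a3, a further anion exchanger, stood at 9.46, 6.97 and 9.62 CPM in GRwt and at 9.996, 11.8 and 12.5 CPM in GRdim libraries. Its groups did not overlap, but the gap was small and the log2 fold change was 0.39 with a standard error of 0.24 (edgeR unadjusted p = 0.136).

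Sodium/proton exchangers, in which a glucocorticoid response is known from intestine, showed no separation. Slc9a3, the apical exchanger that drives sodium absorption, stood at 109.5, 196 and 169 CPM in GRwt replicates 1, 2 and 3 and at 167, 199.9 and 148 CPM in GRdim replicates 1, 2 and 3. The GRdim values all lay within the GRwt range except that of replicate 2, and the log2 fold change was 0.12 with a standard error of 0.24 (edgeR unadjusted p = 0.642). Slc9a2, another apical exchanger, stood at 51.8, 132 and 68.8 CPM in GRwt and at 126, 66.6 and 61.6 CPM in GRdim libraries, with a fold change of 0.011 and a standard error of 0.39. Of the 9 tested exchangers 7 had a fold change above 0 and 2 below it.

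Of the sodium pump subunits, Atp1b1, the beta subunit needed for delivery of the pump to the membrane, stood at 755, 1071 and 858 CPM in GRwt replicates 1, 2 and 3 and at 959, 859 and 734 CPM in GRdim replicates 1, 2 and 3. It was highest in GRwt replicate 2 and lowest in GRdim replicate 3, and the log2 fold change was -0.074 with a standard error of 0.23. Per kb of exon sequence its mean over the 6 libraries was 283 CPM, while Atp1b3, a further beta subunit, stood at 42.0 CPM per kb. In CPM, Atp1b3 stood at 119, 99.1 and 101 CPM in GRwt and at 81.8, 86.7 and 115 CPM in GRdim libraries, a fold change of -0.17 with a standard error of 0.19. Of the 7 tested subunits 2 had a fold change above 0 and 5 below it. Atp1b1, Slc4a2 and Slc20a2 overlap protein-coding genes on the opposite strand (Nme7, Fastk and Smim19, with 3368, 14573 and 3838 counts), whose reads may be included where the counting ignored strand.

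Genes of chloride secretion overlapped between the genotypes. Slc12a2, the basolateral sodium-potassium-chloride cotransporter, stood at 305, 348 and 401 CPM in GRwt replicates 1, 2 and 3 and at 482, 257 and 300.0 CPM in GRdim replicates 1, 2 and 3. The groups overlapped, and the log2 fold change was -0.021 with a standard error of 0.27. Cftr, the cyclic AMP-gated chloride channel, stood at 55.2, 79.6 and 102 CPM in GRwt and at 126, 54.0 and 44.8 CPM in GRdim libraries, and Ano1, a calcium-gated one, stood at 127, 258 and 238 CPM in GRwt and at 313, 192 and 213 CPM in GRdim libraries. Best2, a bestrophin known for bicarbonate secretion by mouse colonic goblet cells, stood at 72.7, 77.2 and 55.4 CPM in GRwt and at 86.5, 92.4 and 42.6 CPM in GRdim libraries. GRdim replicate 1 held the highest level of Slc12a2, Cftr and Ano1. Next came GRwt replicate 3, the other library with a T in its name, for Slc12a2 and Cftr, and GRwt replicate 2 for Ano1. The fold changes were -0.079 for Cftr, 0.21 for Ano1 and 0.11 for Best2, with standard errors of 0.40, 0.31 and 0.29. Of the potassium-chloride cotransporters Slc12a7 stood at 79.2, 106 and 109 CPM in GRwt and at 118, 96.9 and 102 CPM in GRdim libraries, a fold change of 0.11 with a standard error of 0.19. Slc12a8, whose product has been described as a nicotinamide mononucleotide transporter in mouse, was lowest in GRdim replicate 3, at 81.9, 86.9 and 63.5 CPM in GRwt and at 93.3, 49.6 and 13.6 CPM in GRdim libraries. Its log2 fold change of -0.57 (standard error 0.54) became -0.12 without GRdim replicate 3, but -1.295 without GRdim replicate 1 (edgeR unadjusted p = 0.0343).

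Carbonic anhydrases differed among themselves. Car1 and Car2, cytosolic enzymes, stood at 242, 532 and 206 CPM in GRwt and at 403, 269.6 and 399 CPM in GRdim libraries for Car1, and at 212, 339 and 220.0 CPM in GRwt and at 319, 325 and 335 CPM in GRdim libraries for Car2. The Car2 values of the 3 GRdim libraries lay close together, inside the GRwt range, and the log2 fold changes were 0.13 with a standard error of 0.37 for Car1 and 0.34 with a standard error of 0.22 for Car2. Car4, the enzyme anchored at the surface of absorptive cells, stood at 92.9, 454 and 87.6 CPM in GRwt replicates 1, 2 and 3 and at 125, 159.9 and 33.3 CPM in GRdim replicates 1, 2 and 3, the widest range of the genes with a mean of at least 1 CPM, 13.6-fold. The log2 fold change was -0.99 with a standard error of 0.73, but without GRwt replicate 2 it was 0.23, so that 1 library decided its direction.

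Among the water channels Aqp4, Aqp8 and Aqp1 had the most reads. Aqp4, a basolateral water channel, stood at 179, 295 and 290.4 CPM in GRwt replicates 1, 2 and 3 and at 417, 134 and 32.4 CPM in GRdim replicates 1, 2 and 3. The log2 fold change was -0.39 with a standard error of 0.71, and 0.10 without GRdim replicate 3. Aqp8, a channel of surface colonocytes, stood at 26.7, 138 and 22.9 CPM in GRwt and at 68.8, 94.98 and 13.04 CPM in GRdim libraries, with GRwt replicate 2 highest and GRdim replicate 3 lowest again, and a fold change of -0.077 with a standard error of 0.81. Aqp1, known from endothelium, stood at 39.5, 34.1 and 26.9 CPM in GRwt and at 46.8, 24.2 and 73.3 CPM in GRdim libraries, and the 10 endothelial markers summed to 151 to 238 CPM in GRwt and 134 to 273 CPM in GRdim libraries. For Aqp1 the fold change was 0.52 with a standard error of 0.36. Aqp5, a water channel of glands, was scarce: it stood at 0.387, 0.407 and 0.580 CPM in GRwt and at 0.337, 1.13 and 3.45 CPM in GRdim libraries. The groups overlapped, and the log2 fold change was 1.82 with a standard error of 0.78 (edgeR unadjusted p = 0.0454). It was 2.30 without GRdim replicate 1 and 0.68 without GRdim replicate 3, where Aqp5 was highest. The 10 squamous epithelium markers summed to 110.4, 213 and 100.4 CPM in the GRwt libraries, by replicate number, and to 92.0, 103 and 909 CPM in the GRdim libraries, highest in the same library, and their part in the Aqp5 value was not tested.

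Calcium exchangers and phosphate transporters were mostly of low level. Slc8a1, a sodium/calcium exchanger of muscle, stood at 12.7, 12.7 and 16.1 CPM in GRwt and at 35.8, 10.3 and 14.4 CPM in GRdim libraries, highest in GRdim replicate 1, with a log2 fold change of 0.54 with a standard error of 0.43. Slc24a3, a potassium-dependent one, stood at 8.60, 12.6 and 11.2 CPM in GRwt and at 22.2, 10.03 and 21.0 CPM in GRdim libraries, a fold change of 0.71 with a standard error of 0.33 (edgeR unadjusted p = 0.0585), and Slc8a2 stood at 1.01, 1.42 and 1.33 CPM in GRwt and at 2.51, 1.25 and 4.33 CPM in GRdim libraries, 1.10 with a standard error of 0.50. In both, GRdim replicates 1 and 3 lay above all GRwt libraries and GRdim replicate 2 did not. The smooth muscle markers were also highest in these libraries and summed to 1499, 1328 and 1543 CPM in the GRwt libraries, by replicate number, and to 2792, 1280 and 6677 CPM in the GRdim libraries, with all 10 fold changes above 0 and 9 of them at an unadjusted p under 0.05, and their part in these values was not tested. The phosphate transporters Slc20a1 and Slc20a2 stood at 68.5, 130.3 and 85.1 CPM in GRwt and at 106, 58.1 and 48.8 CPM in GRdim libraries for Slc20a1, and at 44.3, 40.0 and 43.9 CPM in GRwt and at 37.1, 47.2 and 56.0 CPM in GRdim libraries for Slc20a2, with fold changes of -0.42 and 0.13 and standard errors of 0.34 and 0.19. Slc34a2, a sodium-phosphate cotransporter, was higher in every GRdim library, at 4.91, 10.1 and 6.38 CPM in GRwt and at 11.2, 10.3 and 11.2 CPM in GRdim libraries. The gap was narrow, 10.1 against 10.3 CPM, and the log2 fold change was 0.61 with a standard error of 0.30 (edgeR unadjusted p = 0.0745).

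Levels per kb of exon sequence allow genes to be compared with each other. Among the genes named here the highest mean over the 6 libraries was that of Clca1, 752 CPM per kb, followed by Atp1b1, Clca3b and Car1 at 283, 274 and 274 CPM per kb, whose libraries overlap in level. Clca4b stood at 205 and Car2 at 120.5 CPM per kb. Of the apical exchangers Slc9a3 stood at 29.97, Slc26a3 at 25.6 and Slc9a2 at 12.1 CPM per kb, and of the chloride channels Ano1 stood at 35.8 and Cftr at 9.91 CPM per kb.

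**Figure D4:**
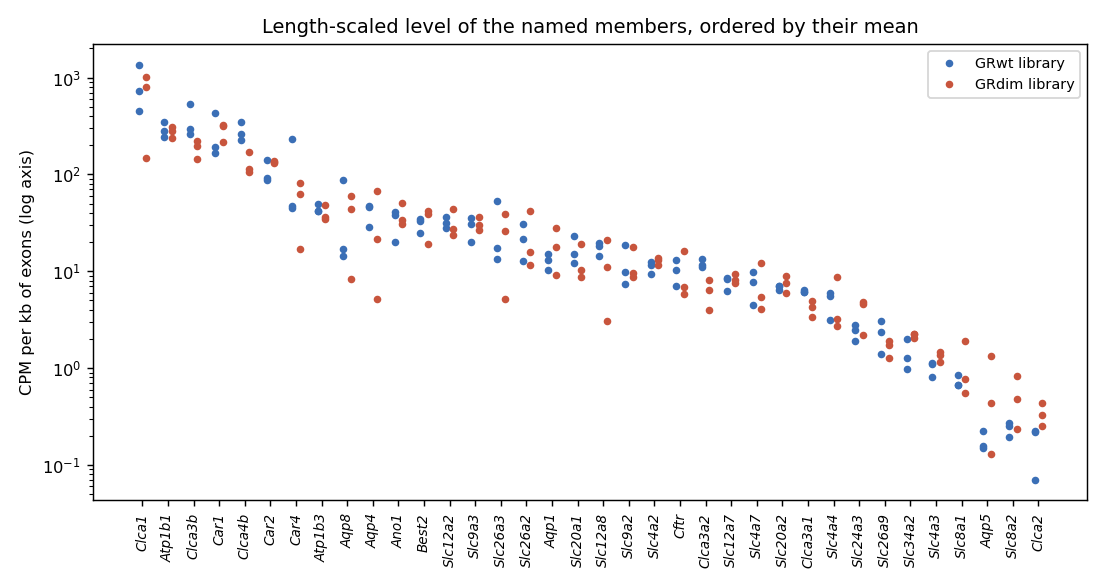
Points give the TMM-scaled CPM per kb of exons, on a log axis, of 36 transport genes named by the stated rule in each of the 3 GRwt (blue) and 3 GRdim (red) libraries, ordered by the mean. Clca1, Atp1b1, Clca3b, Car1 and Clca4b lead, and for Aqp4, Aqp8, Slc26a3, Slc12a8, Clca1 and Car4 the lowest point is a red one, that of GRdim replicate 3.

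The highest and lowest libraries of the transport genes were counted next. GRwt replicate 2 was the highest library for 21 of the 70 tested transport genes, that is 30%, and for 16.1% of all genes tested. GRdim replicate 3 was the lowest for 19, or 27.1%, against 19% of all genes. The same share of 27.1% were lowest in GRwt replicate 1, against 18.1% of all genes. Of the 7 CLCA genes 5 (71.4%) were highest in GRwt replicate 2, and 5 (71.4%) were lowest in GRdim replicate 3. Clca3b and Clca3a2 were in both counts, while Clca4b was lowest in GRdim replicate 1 and Clca3a1 highest in GRwt replicate 1. Car4, Aqp8, Slc26a3, Clca1 and Clca4a were each highest in GRwt replicate 2 and lowest in GRdim replicate 3, over ranges of 13.6, 10.6, 10.2, 9.16 and 9.02 times. Slc12a9, Slc4a2 and Atp1b1 spanned only 1.21, 1.48 and 1.46 times, and the median range over the 70 genes was 2.69, against 1.90 over all tested genes. These genes were chosen for display because of these values, and other surface or goblet genes followed this order in part or not at all. Best2 was lowest in GRdim replicate 3 but highest in GRdim replicate 2. Car1 and Car2 were highest in GRwt replicate 2, but Car1 was lowest in GRwt replicate 3 and Car2 in GRwt replicate 1. Slc9a3 was highest in GRdim replicate 2 and lowest in GRwt replicate 1. In GRdim replicate 3 the goblet markers were lowest and the smooth muscle and squamous markers highest. The 11 absorptive colonocyte markers summed to 12380, 18381 and 10407 CPM in the GRwt libraries, by replicate number, and to 12820, 11491 and 12016 CPM in the GRdim libraries. Lypd8 alone gave 8834 CPM of this sum in GRdim replicate 3, and 3 of the 11 markers were lowest in that library. The pan-epithelial sum of 12964 CPM there lay within the GRwt range. The part of these cell types in the values was not tested.

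**Figure D5:**
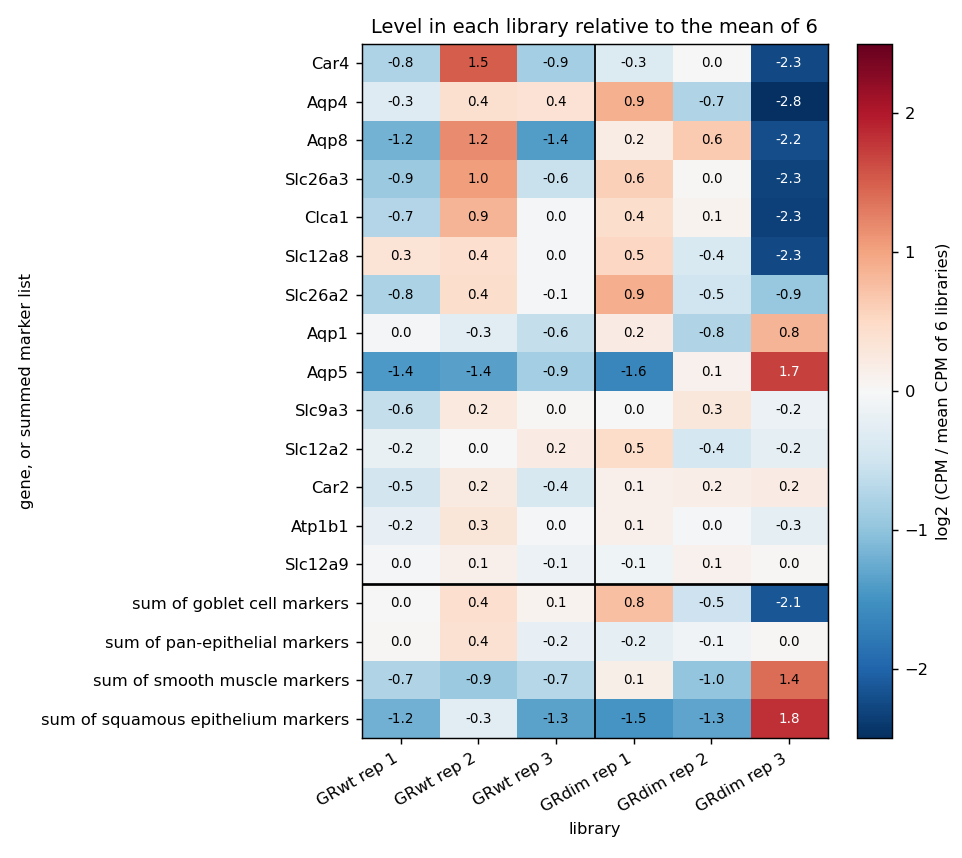
Cells give the log2 ratio of a gene's CPM, or of the summed CPM of a marker list, to its mean over the 6 libraries, with blue for lower and red for higher. Car4, Aqp4, Aqp8, Slc26a3, Clca1 and Slc12a8 are lowest in GRdim replicate 3, as is the sum of goblet cell markers, while Slc12a9 hardly varies.

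Other genes of the same physiology were counted from 10 lists. Of their 76 tested genes 0 passed an adjusted p of 0.05 with edgeR or DESeq2. With edgeR, 2 were higher at an unadjusted p under 0.05, where 1.79% of all tested genes were, and 2 were lower, where 1.09% were. In the epithelial sodium channel list, 2 of 9 were higher at that level, and both are described here with their values. Sgk1, the glucocorticoid-induced kinase that keeps the channel at the surface, stood at 45.1, 55.8 and 46.4 CPM in GRwt and at 89.0, 84.4 and 74.3 CPM in GRdim libraries, without overlap and with a log2 fold change of 0.75 with a standard error of 0.17 (edgeR unadjusted p = 0.00183). Scnn1g, the gamma subunit, stood at 1.93, 3.66 and 2.76 CPM in GRwt and at 4.90, 7.93 and 4.26 CPM in GRdim libraries, 1.04 with a standard error of 0.38, while Scnn1a and Scnn1b, named after their values were seen, had 0.027 and 0.24 with standard errors of 0.26 and 0.27. Leaving out each library in turn gave fold changes of 0.69 to 0.85 for Sgk1, with edgeR unadjusted p from 0.00301 to 0.0105. Scnn1g had an edgeR unadjusted p above 0.05 without GRwt replicate 1, GRwt replicate 3 or GRdim replicate 2, where its fold change was 0.72 (edgeR unadjusted p = 0.105). Of 8 potassium channel genes 1 was lower at that level: Kcne3, the subunit that opens the basolateral channel Kcnq1 for chloride secretion, stood at 88.6, 93.9 and 118 CPM in GRwt and at 85.2, 72.5 and 47.2 CPM in GRdim libraries, without overlap, a fold change of -0.55 with a standard error of 0.24 (edgeR unadjusted p = 0.0494). Car9, a hypoxia-induced carbonic anhydrase, was lower with overlapping groups, at 55.5, 56.6 and 38.1 CPM in GRwt and at 36.9, 40.0 and 31.2 CPM in GRdim libraries, -0.47 with a standard error of 0.21 (edgeR unadjusted p = 0.0487). Kcne3 had an edgeR unadjusted p above 0.05 without any library other than GRdim replicate 1, at -0.35 (edgeR unadjusted p = 0.144) without GRdim replicate 3. Car9 did so without any library other than GRwt replicate 3, at -0.38 (edgeR unadjusted p = 0.158) without GRwt replicate 2.

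In the remaining lists no gene reached an unadjusted p under 0.05 with edgeR, and the gene of lowest p is given for each. Fxyd1, a regulator of the sodium pump, had a fold change of 1.10 with a standard error of 0.56, and Chrm3, a muscarinic receptor in the list of guanylin and cyclic nucleotide signalling, had 1.37 with a standard error of 0.67. Without GRdim replicate 3, the library with the highest smooth muscle and squamous markers, these values were 0.10 for Fxyd1 and 0.39 for Chrm3. Without GRdim replicate 2 they were 1.45 for Fxyd1 and 1.81 for Chrm3, and the part of these cell types was not tested. Wnk3, a kinase that regulates the SLC12 cotransporters, had -0.68 with a standard error of 0.39, and Clic1, of the other anion channels, -0.33 with a standard error of 0.27. For Nherf1, the scaffold that binds Slc9a3, the value was -0.20 with a standard error of 0.27, and for the calcium pump Atp2b4 1.09 with a standard error of 0.49, or 0.60 without GRdim replicate 3. Atp4a, a proton pump subunit, had -0.60 with a standard error of 0.64 at under 0.4 CPM in every library. Gucy2c, Guca2a and Guca2b, the receptor and ligands of guanylin signalling, named after their values were seen, had -0.14, -0.20 and -0.056, each smaller than its standard error.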

How the data were processed

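Per the labels' protocols, RNA was extracted with the RNeasy Mini Kit, polyadenylated RNA was isolated with Dynabeads and the Illumina Stranded mRNA Prep kit was used for the libraries. The submitters' processing notes name bcl2fastq 2.20.0.422, Trim Galore, FastQC, MultiQC, STAR 2.7.8a, featureCounts, Subread 1.5.0, DESeq2 1.40.2 and the build GRCm39, with no role or order. The authors deposited raw read counts per gene. The annotation release and strand setting are not given in the sources used here, so reads of overlapping genes on opposite strands may not have been told apart.

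The test was edgeR's quasi-likelihood F test (version 4.0.16, R 4.3.3; TMM factors, the tool's own low-count filter, robust dispersion, Benjamini-Hochberg adjustment, threshold 0.05). The default filter left 18756 of 24797 genes. The procedure was also run on simulated counts with known changes, and how many of those it called is not reported here. CPM are counts scaled to a common TMM-adjusted library total, and the standard error is the log2 fold change divided by the square root of F. Exon lengths came from GENCODE M21, an annotation of GRCm38, matched by gene ID for all 75 genes, and promoter windows from RefSeq, matched by symbol.

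The gene family, the lists and the tests were chosen with earlier results of these data known. Named genes were those with an unadjusted p under 0.05, those without overlap between genotypes at a mean of 1 CPM or more, and up to 3 genes of highest mean per role, of which 36 are reported (some genes and a sequence are not reported here); of the other lists, genes with an unadjusted p under 0.05, or else the one of lowest p. Any other gene is said to be named after its values were seen, or for its position. Alternatives were DESeq2 1.42.0, relative log expression size factors, no filter, the T in the library name as a covariate, the 4 libraries without it, GRdim replicates 1 and 3 (library names with a shared number) summed, a replicate block, and leaving out each library in turn.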

Additional observations from a re-analysis of the deposited data

How the results depend on the processing

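With 3 libraries per genotype, differences of the size seen for most of these genes cannot be told from the spread between libraries. Of 620 fold changes recomputed for 48 named genes under 13 alternatives, 558 kept their direction and 62 changed sign, in 20 genes (the cause was not tested); Atp4a failed the low-count filter in 4 of the alternatives and has no value there. Clca4b passed an adjusted p of 0.05 in DESeq2 only, which called 1 transport gene and 32 genes in all; no other alternative called any gene. Transport genes with an unadjusted p under 0.05 and higher in GRdim numbered 1 (1.79% of all tested genes), but 3 with DESeq2 (1.87%), 3 among the 4 libraries with no T (3.38%), 2 with GRdim replicates 1 and 3 summed (1.59%), 0 with the T as a covariate (2.08%), 0 with the replicate block (1.09%), and 0 to 6 with 1 library left out: 0 without GRwt replicate 1 (1.04%) or GRdim replicate 3 (0.622%), 4 without GRwt replicate 2 (0.903%), 2 without GRdim replicate 1 (2.81%) and 6 without GRdim replicate 2 (3.09%). Lower ones numbered 4 with the replicate block as without it, but under the block Clca3a1 had an unadjusted p above 0.05 (0.0560) and Clca4a one under it (0.0155). They numbered 2 without GRdim replicate 3 (0.617% of all genes) and 9 without GRdim replicate 1 (2.58%), the extremes with 1 library left out. Genes without overlap numbered 11 in each direction among the 4 libraries with no T, where 17.6% of all genes were higher and 18.9% lower without overlap, so the share of members is no larger than that of all genes. They numbered 8 higher with GRdim replicates 1 and 3 summed (7.03% of all genes). With 1 library left out they numbered 4 to 13 higher and 6 to 10 lower. Higher ones numbered 4, 13 and 7 without GRwt replicates 1, 2 and 3 (5.74%, 5.96% and 10.1% of all genes). They numbered 9, 10 and 6 without GRdim replicates 1, 2 and 3 (9.7%, 8.92% and 5.72%). Lower ones numbered 8, 7 and 6 without GRwt replicates 1, 2 and 3 (5.98%, 5.98% and 13.3%). They numbered 10, 7 and 6 without GRdim replicates 1, 2 and 3 (10%, 7.3% and 6.2%). With fewer libraries groups separate more easily. The replicate number did not pair the libraries: deviations from the group means correlated at -0.39, 0.03 and -0.432 for numbers 1, 2 and 3 (GRdim replicate 2 alone correlated best with its own number).

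Sign changes outside the left-out libraries were with DESeq2 Slc9a2 at -0.0078, Slc4a4 at -0.0100. With relative log expression factors Slc9a2 at -0.0020, Slc4a4 at -0.0052. With no filter Slc9a2 at -0.017, Slc4a4 at -0.024. With the T as a covariate Slc9a2 at -0.059, Aqp8 at 0.10, Slc26a2 at -0.13, Slc4a4 at -0.19. Among the 4 libraries with no T Slc9a2 at -0.51, Car1 at -0.21, Slc26a2 at -0.66, Best2 at -0.15, Slc8a1 at -0.042, Slc4a4 at -0.61. With GRdim replicates 1 and 3 summed Slc9a2 at -0.082, Aqp8 at 0.12, Slc26a2 at -0.039, Slc4a4 at -0.18. With the replicate block Slc26a2 at -0.10, Slc4a4 at -0.18. With 1 library left out, the log2 fold changes ran from -0.052 to 0.39 for Ano1, from -1.62 to 0.10 for Aqp4, from -0.61 to 1.25 for Aqp8, from -0.18 to 0.074 for Atp1b1, from -0.089 to 0.38 for Best2, from -0.13 to 0.67 for Car1, from -1.42 to 0.23 for Car4, from -0.68 to 0.18 for Cftr, from -0.84 to 0.14 for Clca1, from -0.43 to 0.12 for Nherf1, from -0.34 to 0.15 for Slc12a2, from -0.023 to 0.17 for Slc12a7, from -0.022 to 0.27 for Slc20a2, from -0.66 to 0.42 for Slc26a2, from -0.84 to 0.59 for Slc26a3, from -0.72 to 0.30 for Slc4a4, from -0.65 to 0.24 for Slc4a7, from -0.17 to 0.85 for Slc8a1, from -0.39 to 0.49 for Slc9a2, from -0.091 to 0.30 for Slc9a3.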
